A study of Trichoplusia ni and Spodoptera exigua with 20 samples.

Results

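The genes described here are the expressed genes of the cabbage looper, *Trichoplusia ni*, whose values were higher in every library from larvae fed either of a pair of histone deacetylase (HDAC) inhibitors than in every control library. They number 200 of the 10610 *T*. *ni* genes with a normalized value, or 1.89%. They were selected on those values, x = log2(normalized value + 1), where the normalized value is the count of a gene scaled to its library's total (CPM) and divided by a scaling factor of the library. A gene entered when its mean value over the 3 controls was at least 5, every sulforaphane (SFN) and trichostatin A (TSA) library lay above every control, and the mean x of SFN and of TSA each lay at least 0.8 above that of control. The 100 genes with the highest control means were left out. These criteria were met by 514 genes, and the 200 with the largest smaller rise of SFN and TSA were kept. The remaining 314 lie beyond that limit. In what follows, "members" are the 200 genes, a "rise" is the difference in mean x from control, and "expressed genes" are the 6711 genes that met the criteria on the control level, members included.

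The study asked how dietary HDAC inhibitors affect gene expression in larvae of *T*. *ni* and of *Spodoptera exigua*, and apart from 1 comparison at the end only the *T*. *ni* libraries enter the values below. Fat bodies of wild-type larvae were dissected at about Day 10, and each library pooled 3 to 5 larvae. SFN libraries (n = 4) came from larvae on artificial diet coated with 70 mM SFN in ethanol, TSA libraries (n = 4) from larvae on diet coated with 330 µM TSA in ethanol, and control libraries (n = 3) from larvae given the ethanol carrier, which was evaporated in all groups. The inhibitors were thus given at different doses. A pool gives 1 value and no spread between larvae, and sequencing was of poly(A) RNA from bulk tissue, in which fewer cells of a type and less RNA per cell cannot be told apart.

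HDACs remove acetyl groups from the tails of histones, and chromatin at deacetylated histones is usually less open to transcription. An inhibitor leaves more acetyl groups in place, and in many cell types the transcripts of some genes then rise while those of others fall. SFN is an isothiocyanate released when tissue of cruciferous plants is damaged. TSA is a hydroxamic acid, made by *Streptomyces*, that binds the zinc ion in the active site of many HDACs. The insect fat body combines storage, metabolic and secretory roles that vertebrates divide between liver and adipose tissue. *T*. *ni* feeds largely on crucifers.

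The tables identify genes by number only, and 0 of the members matched the annotation at hand, so no member could be given a name, a role, a protein or a promoter. The identity of the tissue could not be checked by its defining transcripts for the same reason. Members carried 31 different leading numbers in their identifiers, with at most 15 members under any 1 of them. Pairs of members next to each other in identifier order numbered 5. How many pairs random placement would give was not computed, so the count is not read as few or many.

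Library totals were 17184377 to 23518486 counts for SFN, 17625967 to 21176033 for TSA and 18681299 to 20462975 for control. The 100 genes with the highest control means took 41.5% to 67.3% of all counts in SFN libraries, 51.4% to 63.9% in TSA libraries and 34.7% to 67.1% in control libraries. The deposited scaling factors ranged from 0.685 to 1.28 for SFN, from 0.866 to 0.967 for TSA and from 0.817 to 1.92 for control. The factor of 1.92 belonged to control replicate 3, which carries, with SFN replicate 4 and TSA replicate 4, a later series of library codes in the sample titles. Control replicate 2 stood apart from the other controls for the members, so values are also given without it.

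Members had a median normalized value of 61.4, 67.8, 111.6 and 78.4 in SFN replicates 1 to 4. In TSA replicates 1 to 4 the median was 60.0, 90.7, 68.9 and 61.1, against 22.5, 8.34 and 22.8 in control replicates 1 to 3. SFN replicate 3 had the highest median of all libraries and control replicate 2 the lowest, and the medians of treated and control libraries did not overlap. The median over the expressed genes was 14.8 to 16.8 in SFN, 13.7 to 14.7 in TSA and 18.9 to 20.1 in control. The median member thus lay several times above the median expressed gene in every treated library, slightly above it in control replicates 1 and 3, and below it in control replicate 2. They held 3.45% to 7.22% of all counts in SFN libraries and 3.82% to 5.33% in TSA libraries, against 0.696% to 3.03% in control libraries.

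**Figure D1:**
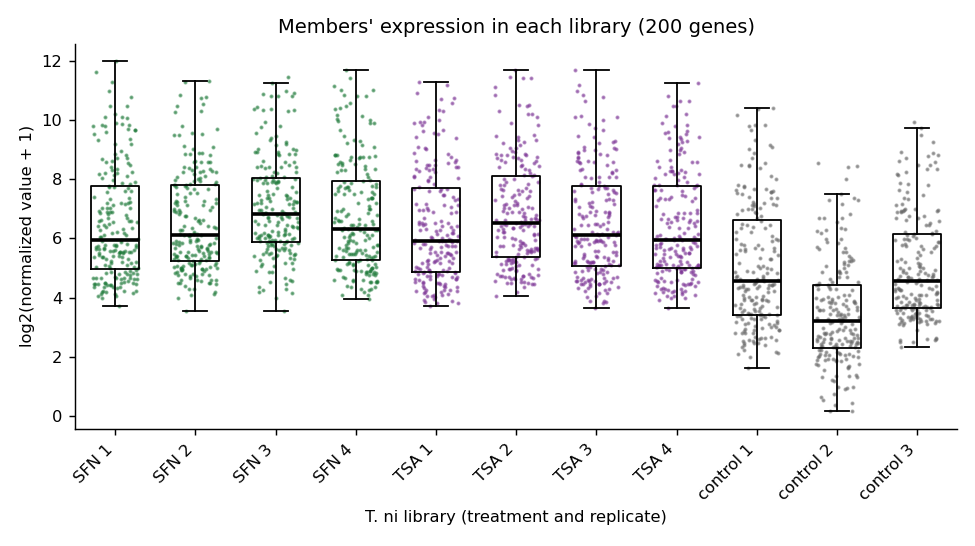
Expression of the 200 members in each T. ni library, as log2(normalized value + 1); each point is a gene, the line in a box is the median, the box spans the quartiles and whiskers reach at most 1.5 interquartile ranges. Medians of the normalized value are 61.4 to 111.6 in SFN, 60.0 to 90.7 in TSA and 8.34 to 22.8 in control libraries, with control 2 lowest.

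The median rise of the members was 2.11 under SFN (range 1.43 to 4.48) and 1.91 under TSA (range 1.43 to 5.01), which are 4.32-fold and 3.76-fold on the scale of value + 1. Per library, the median rise of the members was 2.12 ± 0.24 (SD, n = 4) under SFN and 1.91 ± 0.19 (SD, n = 4) under TSA. Each was taken from the same control mean, so these SDs leave out the spread of the controls. Over the 3 control libraries the same quantity had an SD of 0.79. Over all 10610 genes the median rise was 0.10 under SFN and 0.04 under TSA. These sizes follow from how the members were selected and are given as a description. A rise of at least 4-fold in both treatments was seen in 66 members and of at least 8-fold in 7. Every treated library above every control, which all members show by selection, was seen in 636 of the 6711 expressed genes, or 9.48%.

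Control levels of the members spanned 5.03 to 762, with a median of 17.9. A control mean of 5 to 10 was found for 61 members, 10 to 50 for 78, 50 to 200 for 42, and 200 or more for 19. The median of the smaller rise was 1.80, 1.83, 1.76 and 1.84 in these bands from low to high, all set by the selection at 1.43 or more. Over the expressed genes it was 0.05, -0.18, -0.33 and 0.43. In SFN libraries 93 members were among the 1000 genes with the highest mean values, and in TSA libraries 81, against 37 in controls. The median rank of a member was 1172 in SFN and 1205 in TSA, against 3922 in control.

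**Figure D2:**
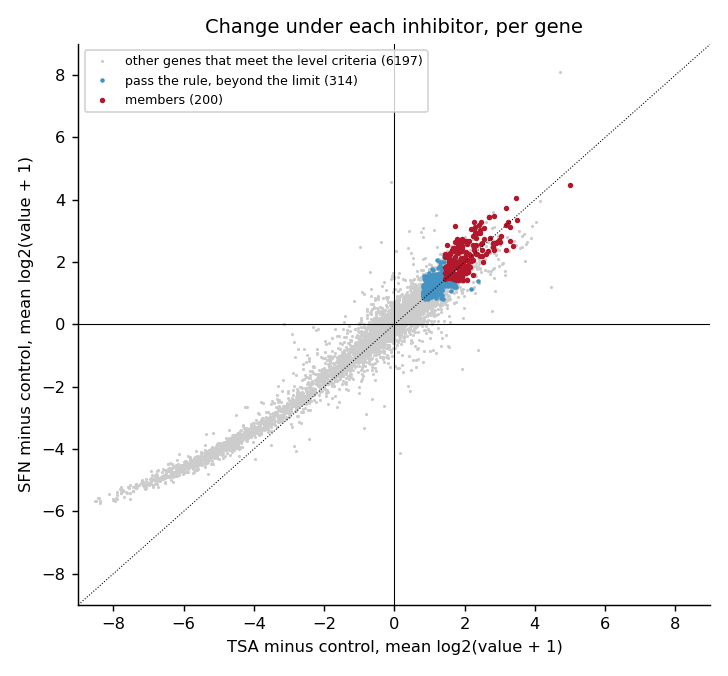
Change of each expressed gene under TSA (horizontal axis) and SFN (vertical axis), as the difference in mean log2(normalized value + 1) from the same 3 control libraries; red points are the 200 members, blue points the 314 genes that met the criteria beyond the limit, grey points the other 6197 expressed genes, and the dotted line marks equal change. Members lie between 1.43 and 4.48 under SFN and between 1.43 and 5.01 under TSA; the shared controls tie the axes to each other.

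Tni25G00180 had the largest smaller rise. Its normalized values were 955, 256, 509 and 700.0 in SFN replicates 1 to 4, and 966, 644, 699 and 884 in TSA replicates 1 to 4. In control replicates 1 to 3 they were 25.6, 2.40 and 161, so that the controls lay further apart as ratios than the treated libraries did, and the value of 2.40 rests on 66 counts. Its rise was 4.48 under SFN and 5.01 under TSA. These rises chose the gene and are not tested.

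Tni27G01330, second by the same order, had normalized values of 812, 461, 338 and 457 in SFN replicates 1 to 4. The TSA values were 361, 429, 108 and 632, against 82.2, 3.90 and 60.6 in control replicates 1 to 3. TSA replicate 3 and control replicate 1 were the nearest to each other. Its rise was 4.07 under SFN and 3.46 under TSA. Control replicate 2 was by far the lowest control for both of these genes.

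All 200 members passed the filter on low counts (mean CPM over 10 across the 11 libraries), but 32 of them had a control mean CPM at or under that filter and so passed through the treated groups. In edgeR's quasi-likelihood fit, with Benjamini-Hochberg adjustment over 5445 genes, 42 members were higher under SFN than in control and 80 were higher under TSA, and 0 were lower in either. Of all genes tested, 1.47% were higher under SFN and 4.13% under TSA. Because the members were selected on these contrasts, nothing is read from the counts. Calls over all genes, the members among them, were often lost on leaving out a single library, for SFN also a TSA library. With all libraries the lowest adjusted p under SFN in edgeR's test was 0.034, close to the threshold of 0.05. For SFN, leaving out TSA replicate 3 left 65 genes higher, 35 of them members, and leaving out each of the other libraries in turn left 0 genes higher. For TSA, 0 genes were higher on leaving out TSA replicate 1, 2 or 3. Without control replicate 1, 2 and 3, 15, 38 and 14 genes were higher under TSA, of which 7, 22 and 8 were members. The median log2 fold change of the members in these fits stayed between 1.16 and 2.18 under SFN, beside 1.67 with all libraries.

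The difference between the inhibitors was not used by the selection directly, although a member had to rise in both. In the same edgeR fit, 0 of the 200 members differed between SFN and TSA with Benjamini-Hochberg adjustment (lowest adjusted p = 0.712), and 0% of all 5445 genes did. At an unadjusted p under 0.05 there were 2 members (1%), against 263 genes in all (4.83%). DESeq2's Wald test called 508 genes, 472 higher and 36 lower under SFN, but 0 members (lowest adjusted p = 0.0626). The log2 fold change of SFN over TSA had a median of -0.03 over the members and -0.01 over all genes tested. Its range over the members was -1.09 to 1.24, and its quartiles were -0.34 and 0.32. The median SE was 0.44, and the member at 1.24 had an SE of 0.80 and an adjusted p of 0.83 in the edgeR test. The difference of that member was thus not resolved by these 4 against 4 libraries. Its SE lay above the median SE, so it does not show what size could be resolved in other members. The test does not show that the inhibitors acted alike.

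On the deposited values, the mean x of SFN lay above that of TSA in 128 members (64%) and in 67.7% of the expressed genes. The median difference of SFN minus TSA was 0.13 over the members and 0.14 over the expressed genes. The means lay at least 0.5 apart in 63 members (31.5%), against 26.0% of the expressed genes. SFN and TSA libraries did not overlap in 6 members (3%), with every SFN library higher in 5 and every TSA library higher in 1. The same held for 2.80% of the expressed genes, so the share among members is close to that in general.

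Tni23G00520 had the highest log2 fold change of SFN over TSA among the members in the edgeR fit. Its normalized values were 321, 474, 2056 and 452 in SFN replicates 1 to 4, and 251, 279.8, 198 and 200.2 in TSA replicates 1 to 4. Controls had 187, 12.8 and 126. SFN replicate 3 alone lay far above the rest, and the other SFN libraries were also above every TSA library. The edgeR log2 fold change of SFN over TSA was 1.24 (SE 0.80, adjusted p = 0.83).

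Tni05G04740 was next in the edgeR fit, although 3 members besides Tni23G00520 exceeded its difference of 0.94 in mean x, with 231, 111, 22.8 and 17.4 in SFN replicates 1 to 4. Its TSA values were 42.6, 36.4, 15.5 and 30.2, against control values of 12.3, 5.75 and 7.73. Here the high SFN libraries were replicates 1 and 2, and the other SFN libraries lay within the TSA range. The edgeR log2 fold change was 0.98 (SE 0.72, adjusted p = 0.885).

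At the other end, Tni02G00450 had 51.9, 31.2, 37.2 and 39.6 in SFN replicates 1 to 4. Its TSA values were 42.8, 97.2, 188 and 26.6, and its control values 20.6, 0.546 and 12.3. Only TSA replicates 2 and 3 exceeded every SFN library, and TSA replicate 1 exceeded all but SFN replicate 1. The edgeR log2 fold change of SFN over TSA was -1.09 (SE 0.95, adjusted p = 0.954).

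Tni00G01600 had 68.4, 45.7, 10.6 and 30.7 in SFN replicates 1 to 4. Its TSA values were 77.1, 64.2, 35.5 and 69.8, and its control values 9.50, 0.947 and 8.27. SFN replicate 3, which was the highest SFN library for Tni23G00520, was the lowest here and barely above control replicate 1. The edgeR log2 fold change was -0.89 (SE 0.78, adjusted p = 0.957).

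**Figure D3:**
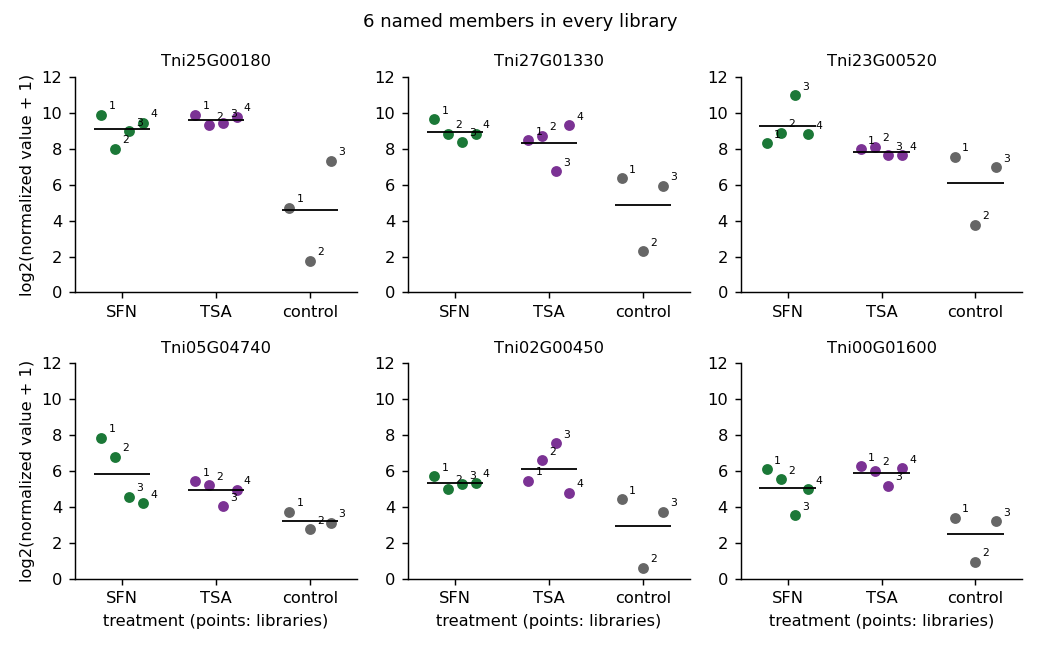
Expression of 6 members in every T. ni library, as log2(normalized value + 1), by treatment; each point is a library with its replicate number and the line is the mean of the group. All SFN and TSA points lie above all control points, by selection, and control 2 is the lowest control in all 6.

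The members with an unadjusted p under 0.05 in this comparison were named after their values were seen. Tni21G00180 had 17.4, 55.8, 96.4 and 94.6 in SFN replicates 1 to 4, and 15.8, 30.2, 22.03 and 44.7 in TSA replicates 1 to 4, with controls at 4.78, 11.9 and 11.0. SFN replicates 2 to 4 lay above every TSA library and SFN replicate 1 above only 1 of them, and the edgeR log2 fold change was 0.89 (SE 0.35, adjusted p = 0.712). Tni04G06030 had 27.3, 25.6, 32.3 and 50.0 in SFN, and 61.3, 30.9, 87.99 and 43.1 in TSA, with controls at 14.3, 8.63 and 8.81. TSA replicates 1 and 3 lay above every SFN library and the others within the SFN range, and the edgeR log2 fold change was -0.83 (SE 0.34, adjusted p = 0.712).

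The members differed from the expressed genes in which treated library was highest. SFN replicate 3 was the highest SFN library for 100 members (50%) and for 24.5% of the expressed genes. TSA replicate 2 was the highest TSA library for 114 members (57%) and the lowest for 5, while it was the highest for 24.0% of the expressed genes. SFN replicates 1 and 2 were the lowest SFN library for 72 and 70 members. The median SD of x within a group was 0.53 for SFN and 0.34 for TSA over the members, beside 0.50 and 0.32 over the expressed genes. In control it was 0.82 over the members and 0.61 over the expressed genes.

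With the deposited scaling, the spread in control came mainly from 1 library. With library size only, the control medians of the members in x were 4.27, 3.61 and 5.48 for replicates 1 to 3, so that replicate 3 lay further from replicate 1 than replicate 2 did. Control replicate 2 was the lowest control for 183 members (91.5%), against 38.3% of the expressed genes. It lay over 1 log2 below both other controls for 101 members (50.5%), against 7.51% of the expressed genes. The median rise over control replicate 2 alone was 2.97 under SFN and 2.78 under TSA. Over control replicate 1 alone it was 1.45 and 1.43, and over control replicate 3 alone 1.66 and 1.47. A low value in 1 control enlarges the rise by which members were ranked. When the rule was applied without control replicate 2, 575 genes passed and 125 of the members were among the first 200. Without control replicate 2, the median rise of the members was 1.59 under SFN and 1.46 under TSA, and it was at least 0.8 in both for 197 of 200 members and at least 1 for 179.

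Members also differed in how alike their controls were, but the rule and its ranking used these control values. The controls spanned less than 1 log2 in 31 members (15.5%), against 40.9% of the expressed genes. These 31 had a median rise of 1.75 under SFN and 1.68 under TSA, with a median control mean of 13.3. The other 169 had median rises of 2.19 and 1.94. Of the 314 genes beyond the limit, whose median rise was 1.26 under SFN and 1.18 under TSA, 62.7% had controls within 1 log2. The median correlation between pairs of members in their deviations from the group means over the 11 libraries was 0.50, against 0.0054 over pairs of expressed genes, as a description of genes read in the same libraries. Within the treated libraries alone it was 0.19, against 0.04, and within the controls alone 0.84, against -0.0037. A ranking by rise favours genes with a low control, so the shares and the correlation within controls are no independent trait of the members.

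The separation of treated from control libraries was narrow in many members. The lowest treated value divided by the highest control value ran from 1.00 to 3.32, with a median of 1.48. It was at least 2 in 24 members and under 1.2 in 40. The member with the widest separation had 102, 185, 340.4 and 164 in SFN replicates 1 to 4 and 84.3, 140.4, 102 and 101 in TSA replicates 1 to 4, against 15.1, 9.58 and 25.3 in control replicates 1 to 3. The member with the narrowest had 57.6 in SFN replicate 2 and 57.5 in control replicate 3, with all other treated libraries between 61.6 and 209.7.

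At the limit, the last gene kept had a smaller rise of 1.43 and the first left out 1.42. Among genes that passed, the smallest smaller rise was 0.80, and the largest below the minimum was 0.79. The member with the lowest control mean had 5.03, and a gene that met the other criteria had 4.86. A further 209 genes had rises at least as large as the smallest of the members in both treatments, but a treated library at or below a control. Another 83 genes with rises that large were kept out only by their control mean. At the rule's minimum rise of 0.8, 727 genes passed without the minimum on the control mean, against 514 with it.

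How narrow the separation was also depended on the scaling of the libraries. The deposited factors equal TMM factors computed over the 10610 genes of the normalized table, and TMM over the 5445 genes with a mean CPM over 10 gave control replicate 3 a factor of 1.25 instead of 1.92. With the latter factors 132 of the 200 members still met all criteria. With DESeq2's size factors 148 did, with upper-quartile factors 195, and with library size only 60. Every treated library stayed above every control in 133, 148, 200 and 61 members in this order of scalings. Both rises were at least 0.8 in 200 of 200 members under each of them. That count was largely fixed by the selection, which kept only rises of 1.43 or more in both treatments on the deposited values. Control replicate 3 was the highest control for 88 members with the deposited factors, 147 with TMM over the smaller set and 188 with library size only.

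The median over all genes moved with the scaling as well. It was 0.10 under SFN and 0.04 under TSA with the deposited factors, -0.22 and -0.16 with TMM over the smaller set, and -0.29 and -0.32 with library size only. Relative to these shifts, the median rise of the members was 2.02 and 1.87 with the deposited factors, 1.91 and 1.81 with TMM over the smaller set, and 1.91 and 1.78 with library size only. A factor of a library moves all its genes alike, so these relative values can differ between scalings only through the pseudocount.

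**Figure D4:**
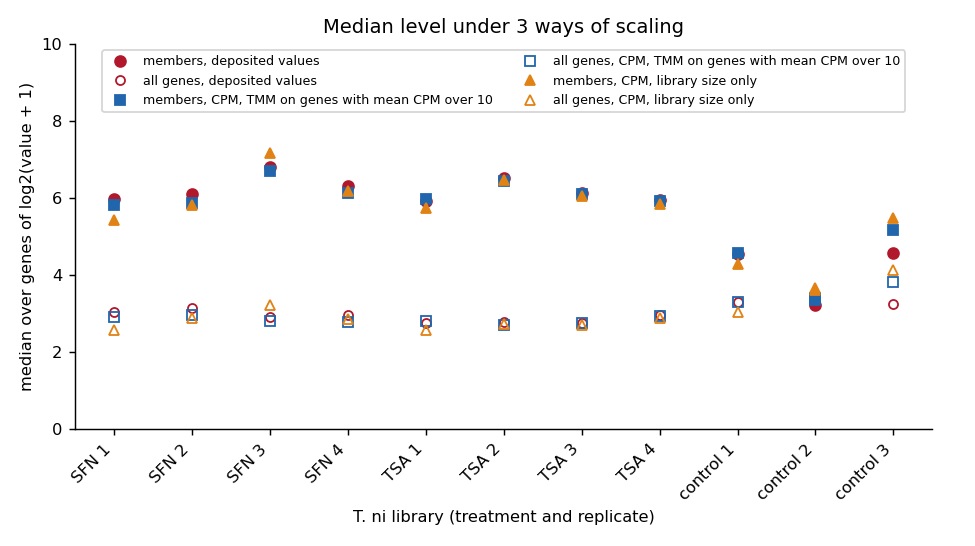
Median log2(value + 1) of the 200 members (filled symbols) and of all 10610 genes (open symbols) in each T. ni library under the deposited scaling (circles), TMM over genes with a mean CPM over 10 (squares) and library size only (triangles). Control 3 moves most between scalings, from a member median of 4.57 with the deposited factors to 5.17 and 5.48, and all treated libraries stay above it in their medians except SFN 1 under library size only, at 5.43.

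To read the pattern in libraries that had no part in the choice, the rule was applied without each library in turn, keeping the first 200 genes, and those genes were then read in the library left out. The left-out SFN library lay above every control for 91.5%, 87%, 94% and 99% of these genes (replicates 1 to 4), against 28.3% to 32.6% of the expressed genes. The left-out TSA library did so for 98%, 99.5%, 98% and 95.5%, against 27.6% to 31.2%. SFN replicates 1 and 2 gave the lowest shares. The genes were chosen for low values in the same 3 controls, so the share over the expressed genes is no measure of what such genes would show without a rise in the library read.

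The controls were less alike in this respect. Control replicates 2 and 3, left out, lay below every treated library for 92% and 88% of the genes chosen without them, against 28.6% and 38.7% of the expressed genes. Control replicate 1 did so for only 39%, against 17.6% of the expressed genes. These genes were chosen for high values in the same treated libraries. The share over the expressed genes is therefore no measure of what such genes would show without a low value in the control read. Without control replicate 1 the rule passed 987 genes, and only 77 members were among the first 200 of these. In those 200 genes the treated libraries lay a median of 0.53 above control replicate 1. With each of the other libraries left out, 125 to 192 members were among the first 200, so the composition of the members depended most on control replicate 1.

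**Figure D5:**
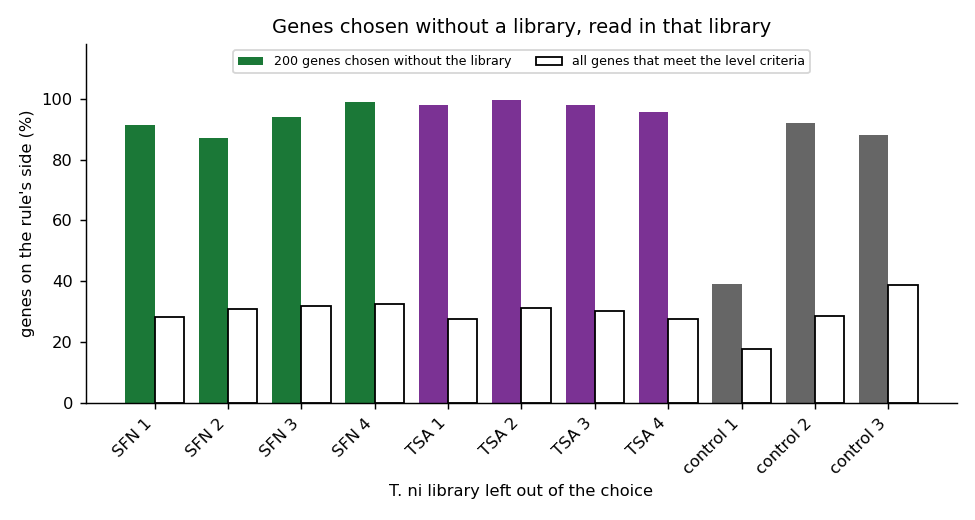
Share of the 200 genes chosen without a library that lay on the rule's side in that library (filled bars: a treated library above every control, or a control below every treated library), beside the same share of all expressed genes (open bars), for each of the 11 T. ni libraries. Treated libraries reach 87% to 99.5%, control 2 92% and control 3 88%, and control 1 only 39%. The chosen genes were selected on the libraries they are compared with and the expressed genes were not, so the open bars are no measure of chance.

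The series of library codes splits the libraries into an earlier set (SFN and TSA replicates 1 to 3, control replicates 1 and 2) and a later set (SFN replicate 4, TSA replicate 4 and control replicate 3). What the codes stand for is not given in the labels. Within the earlier set, the median rise of the members was 2.35 under SFN and 2.19 under TSA, against -0.10 and -0.20 over the expressed genes. Within the later set, with 1 library a treatment and hence no test, it was 1.73 and 1.35, against 0.37 and 0.21. A rise in both sets was fixed by the selection, which required every treated library of either set to lie above every control.

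When the rule was applied to the earlier set alone, 559 genes passed and 151 of the first 200 were members. Read in the later set, SFN replicate 4 exceeded control replicate 3 in 195 of these 200 genes and TSA replicate 4 did in 196, with both higher in 193. Of the expressed genes, 60.2%, 57.4% and 52.8% did so. The median difference in the 200 genes was 1.68 for SFN and 1.21 for TSA, against 0.43 and 0.26 in the expressed genes. This reading depended on the factor of control replicate 3. With TMM over the smaller gene set the medians were 0.87 and 0.56, against -0.31 and -0.32, and with library size only they were 0.59 and 0.16, against -0.56 and -0.70. In the reverse direction, the first 200 genes chosen in the later set held 25 members, and their median rise in the earlier set was 0.94 under SFN and 0.76 under TSA, with all libraries separated in 82 of 200.

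Genes that met the rule were fewer than those that met it in the opposite direction. With the rule mirrored, 1524 expressed genes passed, or 22.7% of the 6711, against 7.66% in the rising direction. The mirrored rule also passed more genes under the other scalings, with 1824 against 238 for TMM over the smaller set, 1728 against 108 for library size only, 1790 against 272 for DESeq2's size factors and 1479 against 619 for upper-quartile factors. The balance of edgeR calls was less stable under SFN, with 80 genes higher and 282 lower in the main scaling and 339 higher and 235 lower with upper-quartile factors. Under TSA more genes were lower in both, with 225 higher and 1089 lower in the main scaling and 643 and 983 with upper-quartile factors. Genes that passed on the deposited values had a median difference in x from control of 1.45 under SFN and 1.38 under TSA in the rising direction. In the falling direction it was -3.35 and -3.97. In *S*. *exigua*, which had 3 libraries of each treatment, the same rule passed 559 of 12380 genes, and the first 200 had a median rise of 2.29 under SFN and 2.38 under TSA. No gene was matched between the species, so it was not determined whether these are counterparts of the members.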

How the data were processed

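RNA-seq of fat body libraries of *T*. *ni* (4 SFN, 4 TSA and 3 control) was analysed, with groups and replicate numbers taken from the sample titles, and the *S*. *exigua* libraries were used only for the count of genes under the same rule. The authors trimmed the reads with Trimmomatic 0.39, aligned them with HISAT2 2.2.1 to the *T*. *ni* Cornell-1 genome, used featureCounts for the counts of 14384 genes, and deposited these counts without normalization. The authors also deposited a normalized signal for 10610 genes. Multiplied by 1 factor per library, 100% of its values were whole reads (tolerance 0.01) equal to the counts, and the factors equalled the library total times a TMM factor over those genes. The lowest mean CPM in that table was 0.121. The rule for the members was applied to this signal with a pseudocount of 1. The members, the rule and the tests were chosen with earlier results of these data known.

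Counts were tested in R 4.3.3 with edgeR 4.0.16 over all 11 *T*. *ni* libraries, using the quasi-likelihood test with TMM scaling, genes with a mean CPM over 10 (5445) and Benjamini-Hochberg adjustment. The model held treatment and, as a reading of the study's mention of pairing that is in doubt, the replicate number as a block. This grouped control replicate 3, of the later code series, with SFN replicate 3 and TSA replicate 3 of the earlier series. SFN replicate 4 and TSA replicate 4 had no control of their number. Within the model they entered the fold changes against control only through the difference between them. The fits were tested on simulated data. The libraries are biological replicates of pooled larvae by the series' description. Members named are the 2 with the largest smaller rise and the 2 highest and 2 lowest in SFN over TSA. Alternatives were other scalings (DESeq2 1.42.0 size factors, upper quartile, library size), other filters, pseudocounts and tests, other blocks, the library code series, and leaving out each library. The alternatives with TMM over the smaller gene set for the median rise and for the later code series were added after the data were seen, as was the mirrored rule under other scalings. Columns of no mapped sample numbered 0. Identifiers could not be paired with names (0 matched a RefSeq table), so gene families, tissue markers and sequences were not examined.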

Additional observations from a re-analysis of the deposited data

Results flagged for a closer look

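The SFN value of Tni23G00520 in replicate 3 was 2056, against 321 to 474 in the other SFN libraries. Its gap to the nearest of the others was 0.911 of the whole range of the group, above Dixon's critical value for 4 samples. Of the 400 groups of 4 libraries that the members give (SFN and TSA for each), 15 held a library that far apart, and chance alone gives about 1 in 20. Without SFN replicate 3 the gene would still have had every SFN library above every TSA library.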

How the results depend on the processing

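The number of genes that met the rule, 514, was 238 with TMM over genes with a mean CPM over 10, 272 with DESeq2's size factors and 108 with library size only, and leaving out each library in turn gave 511 to 987, the highest without control replicate 1. The median rise of the members, 2.11 under SFN and 1.91 under TSA, was 1.80 and 1.63 with a pseudocount of 5, 1.70 and 1.65 with TMM over the smaller gene set, 1.76 and 1.66 with DESeq2's size factors, 1.62 and 1.46 with library size only, and 2.35 and 2.19 in the earlier code series. Leaving out each library in turn gave 1.59 to 2.39 under SFN and 1.46 to 2.16 under TSA, the lowest without control replicate 2.

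The comparison of SFN with TSA gave 0 members in all 22 alternatives. In most of these 0 of all genes were called as well, with 508 under DESeq2, 72 in the earlier code series, 3 without SFN replicate 3 and 2 in the likelihood ratio test. Members called against control, 42 under SFN and 80 under TSA, were 176 and 188 with DESeq2's Wald test (743 and 856 of all 5445 genes were higher), 112 and 160 with upper-quartile factors (339 and 643), 83 and 129 with genes over a mean CPM of 1 (240 and 486 of 9424), and 78 and 125 with every gene of the normalized table (206 and 449 of 10610). That last fit, on the recovered whole reads, called 576 genes under SFN and 2167 under TSA in all. With only the treatments compared in the fit the counts were 0 and 8 (0 and 31 of all genes), and in the earlier code series 0 and 39 (0 and 79). Under SFN the likelihood ratio test gave 101 (226 of all genes) and the code series as a block 91 (214), and under TSA library size only gave 42 (98). Leaving out each library in turn gave 0 to 35 under SFN and 0 to 51 under TSA.

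Without the replicate block 93 members were called under SFN and 73 under TSA, among 218 and 200 genes higher in all, beside 80 and 225 with it. Same-numbered libraries showed no steady shared deviation, and the sample titles do not say whether the numbers pair the samples. The deviations of same-numbered SFN and TSA libraries correlated at 0.42, -0.25, 0.07 and -0.04 for replicates 1 to 4, and 1 of 4 SFN libraries correlated best with the TSA library of its own number. The cause of these differences between settings was not tested.

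Genes chosen in the earlier code series had a median difference in the later one of 1.68 for SFN and 1.21 for TSA. It was 0.87 and 0.56 with TMM over the smaller gene set and 0.59 and 0.16 with library size only, and 0.94 and 0.76 when genes were chosen in the later series and read in the earlier. The lowest share of genes on the rule's side in a left-out library, 39% for control replicate 1, was 26% with library size only, for control replicate 3. The 4 members named by their edgeR fold change of SFN over TSA and the 2 with the largest rise did not change direction in any of their 22 alternatives. They were picked for the size of these same differences, so a kept direction is no independent check. The fold change ran from 0.76 to 1.91 for Tni23G00520 and from 0.39 to 1.56 for Tni05G04740. It ran from -1.66 to -0.24 for Tni02G00450 and from -1.44 to -0.51 for Tni00G01600. The alternatives were not run for Tni21G00180 and Tni04G06030. Depth bears most on low control values, since the lowest value of a member was 10.6 in SFN and 11.5 in TSA libraries, against 0.109 in control replicate 2.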
